A study of Mus musculus with 12 samples.

Results

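Ascites cells from mice with ovarian tumours were compared over every gene of a NanoString immune panel, which counts RNA molecules 1 by 1 with colour-coded probes. Samples titled FAKKD or from mice given an inhibitor of focal adhesion kinase (FAK), here called impaired, were set against control samples. The impaired pool held 6 samples and the control pool 6, which together make up all 12 samples of the series, and all 750 genes of the analysed table entered the comparison. The impaired pool joined 3 samples with tumour cells titled FAKKD and no agent with 3 samples with FAKWT tumour cells whose mice received the FAK inhibitor VS4716 by gavage, at 100 mg per kg and 2 times a day (FAKi). The control pool joined 3 untreated FAKWT samples with 3 samples titled FAKWT whose mice received vehicle by gavage. In every group 5000000 tumour cells had been placed in the peritoneal cavity, cells were recovered on day 21, and RNA came from 2000000 of them. The material is a mixture of tumour and host cells, so for every gene fewer cells of a type and less RNA per cell cannot be told apart. The inhibitor was given to the whole mouse, so its action on tumour cells and on host cells cannot be told apart either.

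The labels leave several points unstated. They do not expand FAKKD or the prefix KT of the titles, the design text calls the tumour cells KMF, and strain, age and the number of animals behind a sample are not stated. The p-values therefore measure only the spread between these samples, which may be technical. The genotype field of the 3 vehicle samples reads FAKKD while their titles read FAKWT. The titles were followed, and the comparison was repeated with each kind of control by itself. Ptk2, which encodes FAK, was not among the 750 genes, so neither the FAKKD label nor the inhibitor's action could be checked on it.

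FAK is a cytoplasmic tyrosine kinase that gathers at clusters of integrins, where a cell holds on to its matrix, and passes adhesion signals on to Src-family kinases and the MAP kinase cascade. Ovarian tumours spread as cells and clumps floating in ascites, next to peritoneal macrophages, lymphocytes, mast cells and granulocytes. CD155, the product of Pvr, sits on tumour and myeloid cells and engages the inhibitory receptor TIGIT of T cells and natural killer (NK) cells. The question of the pooled comparison is which genes of such ascites moved alike with tumour cells titled FAKKD and in mice given a FAK inhibitor.

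The pools differed in the scale of their deposited values. In each sample, 2 to the power of the deposited log2 value equalled a whole number times 1 factor for that sample, and the factor was 1.32 ± 0.20 (SD, n = 6) in the impaired and 0.771 ± 0.083 (SD, n = 6) in the control samples, with no overlap (range 1.13 to 1.66 against 0.659 to 0.896, two-sided exact permutation test, p = 0.00216, the smallest 6 against 6 samples can give). The recovered counts summed to 588778 to 760152 per sample and averaged 701450 in the impaired and 677250 in the control samples (exact permutation test, p = 0.515). The median gene of a sample stood at a log2 value of 7.62 ± 0.13 in the impaired and 6.72 ± 0.11 in the control samples (SD, n = 6 each, exact permutation p = 0.00216). Lyz2, the lysozyme gene of macrophages and neutrophils, had the highest count in all 12 samples and made up 14% of counts in the impaired and 8.61% in the control samples on average. Because the factor separates the pools, counts over the panel are given both on the deposited values and relative to the panel, that is after each sample was shifted to a common panel median. Values of genes and lists are relative to the panel unless stated, and a list whose balance turns on the deposited values has both counts.

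On the deposited values, 599 of 750 genes (79.9%) differed between the pools in limma's moderated test with Benjamini-Hochberg adjustment over all genes at 0.05, 517 of them (68.9%) higher and 82 (10.9%) lower in the impaired samples. Relative to the panel 444 genes (59.2%) differed, with 174 (23.2%) higher and 270 (36%) lower. The change of scale thus moved the balance from mostly higher to mostly lower. Quantile normalization gave 212 higher and 217 lower genes, and scaling to the total count 189 higher and 245 lower. The median log2 difference over the panel was 0.74 as deposited and -0.16 relative to the panel, and values below are relative to the panel unless another scale is named. All 174 genes higher relative to the panel were also higher as deposited, and all 82 lower as deposited were also lower relative to the panel. Another 92 genes changed sides, higher as deposited and lower relative to the panel. The counts of lists below are to be read against the panel's shares on the same scale.

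The pooled contrast averages 2 arms that share no sample: FAKKD against untreated FAKWT, here the genotype arm, and FAKi against vehicle, the inhibitor arm. A gene was counted as moving alike where both arms passed the test in 1 direction. On the deposited values 370 genes (49.3%) did so, 320 higher (42.7%) and 50 lower (6.67%). Relative to the panel 265 genes (35.3%) did so, 97 higher (12.9%) and 168 lower (22.4%). The 97 higher genes were 54.8% of the 177 genes (23.6% of the panel) higher in the genotype arm and 72.9% of the 133 (17.7%) higher in the inhibitor arm. The 168 lower genes were 64.9% of the 259 (34.5%) and 77.8% of the 216 (28.8%) lower in these arms. In opposite directions, both arms passed for 18 genes (2.4%). Moving alike on both scales left 147 genes (19.6% of the panel), 97 higher (12.9%) and 50 lower (6.67%). For 127 of these (16.9% of the panel), among them all 50 lower genes and 77 of the higher ones (10.3%), the 6 impaired samples did not overlap the 6 control samples. Over the whole panel 251 genes (33.5%) did not overlap, 87 (11.6%) of them higher and 164 (21.9%) lower.

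**Figure D1:**
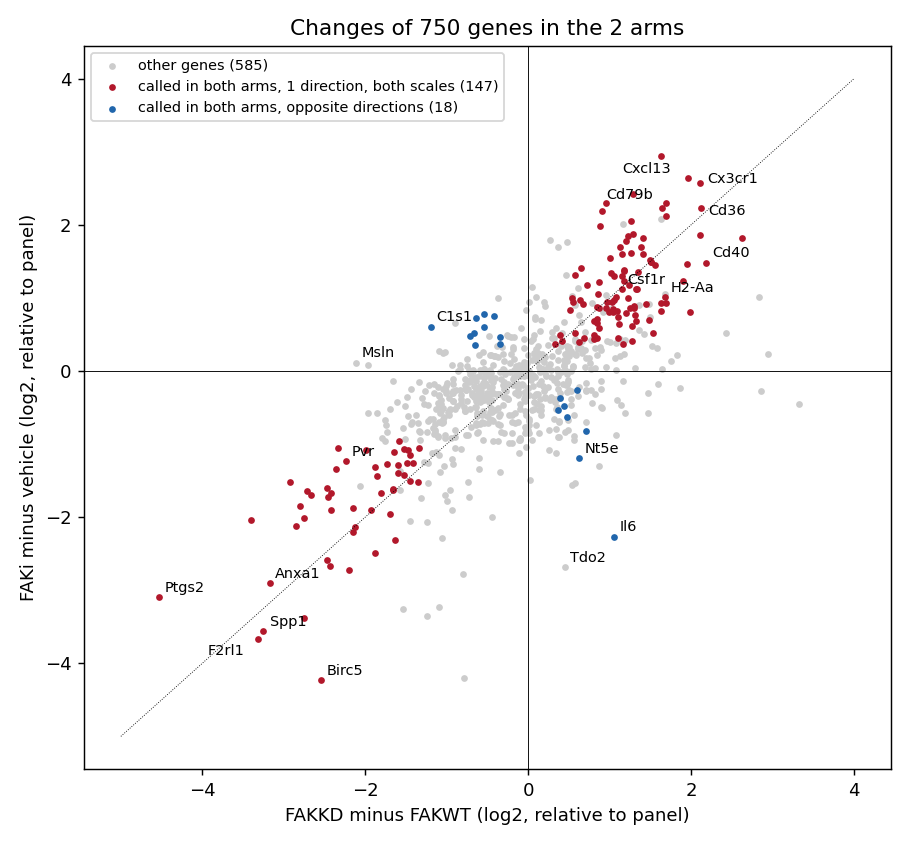
Each point is 1 of the 750 genes, plotted by its log2 difference in the genotype arm (x axis) and in the inhibitor arm (y axis), both relative to the panel, with equal changes on the dotted line. The 147 genes that moved alike on both scales lie in the lower left and upper right, and the 18 that passed in opposite directions in the other corners.

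Among the 147 genes the lower ones had moved further than the higher ones. The 50 lower genes had a median pooled log2 difference of -1.94 (range -3.81 to -1.20), with arm medians of -2.14 in the genotype and -1.66 in the inhibitor arm. The 97 higher genes had a median of 1.11 (range 0.35 to 2.34), with arm medians of 1.18 and 1.01. The choice of genes called on both scales fixes part of this asymmetry, since a gene had to fall far to be lower on the deposited values. The size of change differed between the arms (limma, adjusted over 750 genes) for 17 of the 50 lower genes, in 15 of which the fall was larger in the genotype arm. It differed for 11 of the 97 higher genes, in 8 of which the rise was larger there.

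**Figure D2:**
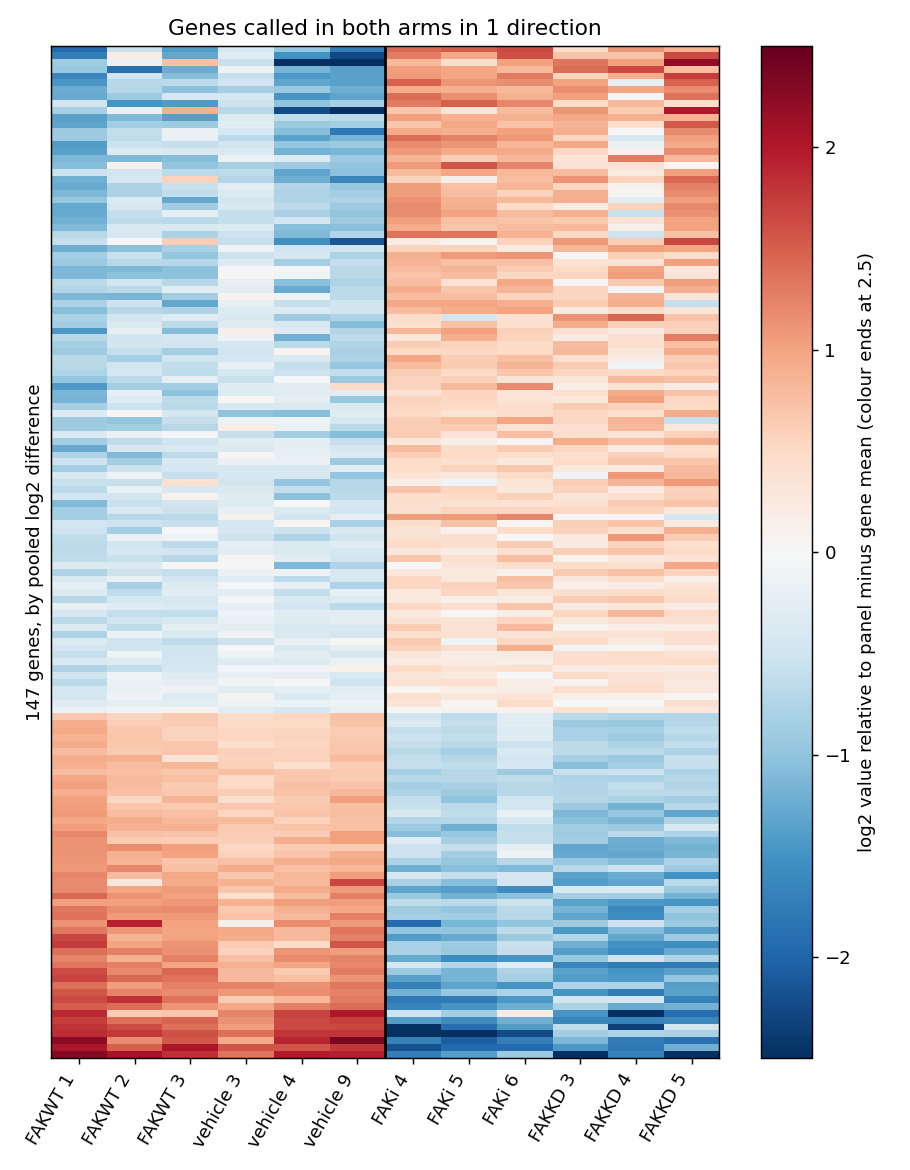
Rows are the 147 genes that moved alike in both arms on both scales, columns are the 12 samples by group, and colour is the log2 value relative to the panel minus the gene's mean over samples, ending at 2.5 in either direction. The black line parts the 6 control from the 6 impaired samples, and the 97 higher genes stand above the 50 lower ones.

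Some of the steep falls shared by both arms were of genes of inflammation. Of 6 genes for prostaglandins, annexin A1 and protease-activated receptors, 4 fell and 2 did not pass, with a list median of -1.92. Ptgs2 encodes cyclooxygenase-2, the inducible enzyme of prostaglandin synthesis. Its log2 values ran from 10.20 through a median of 10.82 to 11.14 in the control samples and from 5.68 through 7.14 to 7.95 in the impaired samples. The pools were more than 2 log2 units apart at their nearest samples, and the pooled difference was -3.81 ± 0.23 (SE, adjusted p = 2.87e-08), a level 14.1 times lower. F2rl1, the receptor PAR2 that trypsin-like proteases activate, was at 8.68, 8.86 and 9.23 (lowest, median and highest, as for all genes below) in the control and 5.01, 5.33 and 5.99 in the impaired samples, a difference of -3.49 ± 0.13 (adjusted p = 7.47e-10). Anxa1, annexin A1, a glucocorticoid-induced protein that limits inflammation, was at 14.25, 14.69 and 14.86 in the control and 11.44, 11.52 and 11.91 in the impaired samples (-3.04 ± 0.11, adjusted p = 7.47e-10). No impaired sample came near the control range in Anxa1, and both arms gave nearly the same change, -3.17 and -2.90, with no difference between them passing (adjusted p = 0.438). Pla2g6, a calcium-independent phospholipase, was the other gene of the list that fell (-0.81).

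Most genes of tumour and epithelial cells were lower in the pooled impaired samples relative to the panel. Of 9 measured members 7 fell, 2 did not pass and none rose, with a list median of -1.0, and the log2 of the list's summed level ran from 13.29 to 13.70 in the impaired and from 14.30 to 14.69 in the control samples. In both arms 4 members were lower relative to the panel, and on the deposited values 4 were lower and 2 higher in the pooled comparison. Those lower on both scales in both arms were Epcam, the epithelial adhesion molecule, Itgb4, the laminin-binding integrin subunit of epithelia, and Muc1, a membrane mucin. Epcam stood at 7.24, 7.72 and 8.18 in the control and at 5.06, 5.23 and 5.67 in the impaired samples, a difference of -2.38 ± 0.13 (adjusted p = 1.53e-08). Itgb4 was at 9.33, 9.92 and 10.31 against 7.21, 7.44 and 7.92 (-2.33 ± 0.12, adjusted p = 9.70e-09), and its fall was larger in the genotype arm (-2.80) than in the inhibitor arm (-1.85, adjusted p of the difference 0.0130). Msln, which encodes mesothelin, a glycoprotein on mesothelial and many ovarian tumour cells, behaved differently. Its pooled difference of -1.0 ± 0.07 (adjusted p = 1.27e-07) was the mean of -2.12 in the genotype arm and 0.11 in the inhibitor arm, which differed by -2.23 ± 0.14 (adjusted p = 1.75e-06), and on the deposited values it did not pass (-0.11, adjusted p = 0.167). Cdh1, the gene of E-cadherin, showed the same split, with -1.96 and 0.08.

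Genes of adhesion, matrix and its proteolysis, the field in which FAK works, mostly fell relative to the panel. As deposited more of them were higher than lower, as over the whole panel. Falls made up 18 of the 30 members, rises 5 and genes without a call 7, and 7 of the falling and 3 of the rising genes moved alike on both scales (Ncam1, Itga2b and Itga4 rose). On the deposited values 17 members were higher and 8 lower, with a list median of 0.40. Over the panel 68.9% of genes were higher and 10.9% lower on that scale, with a median of 0.74. Spp1, osteopontin, a secreted integrin ligand made by tumour cells and macrophages, was at 10.55, 11.32 and 11.97 in the control and 7.54, 7.85 and 8.47 in the impaired samples, a difference of -3.41 ± 0.24 (adjusted p = 1.27e-07). Tnfrsf12a, the TWEAK receptor Fn14, was at 12.45, 12.58 and 12.94 against 9.62, 10.11 and 10.61 (-2.49 ± 0.10, adjusted p = 1.76e-09). The spread within either pool was about 1 log2 unit or less in Tnfrsf12a, under the gap between the pools. Plaur, the urokinase receptor, fell by 1.97 on the log2 scale and Plau, urokinase itself, by 2.19. Itgb3, the integrin subunit of the vitronectin and fibrinogen receptors, fell by 2.05, while the subunits Itgb1, Itga5 and Itga6 fell by 0.51 each relative to the panel but not on both scales. Itga4, an integrin subunit of leukocytes, rose by 1.03 and Itga2b, the platelet and megakaryocyte integrin subunit, by 0.95.

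**Figure D3:**
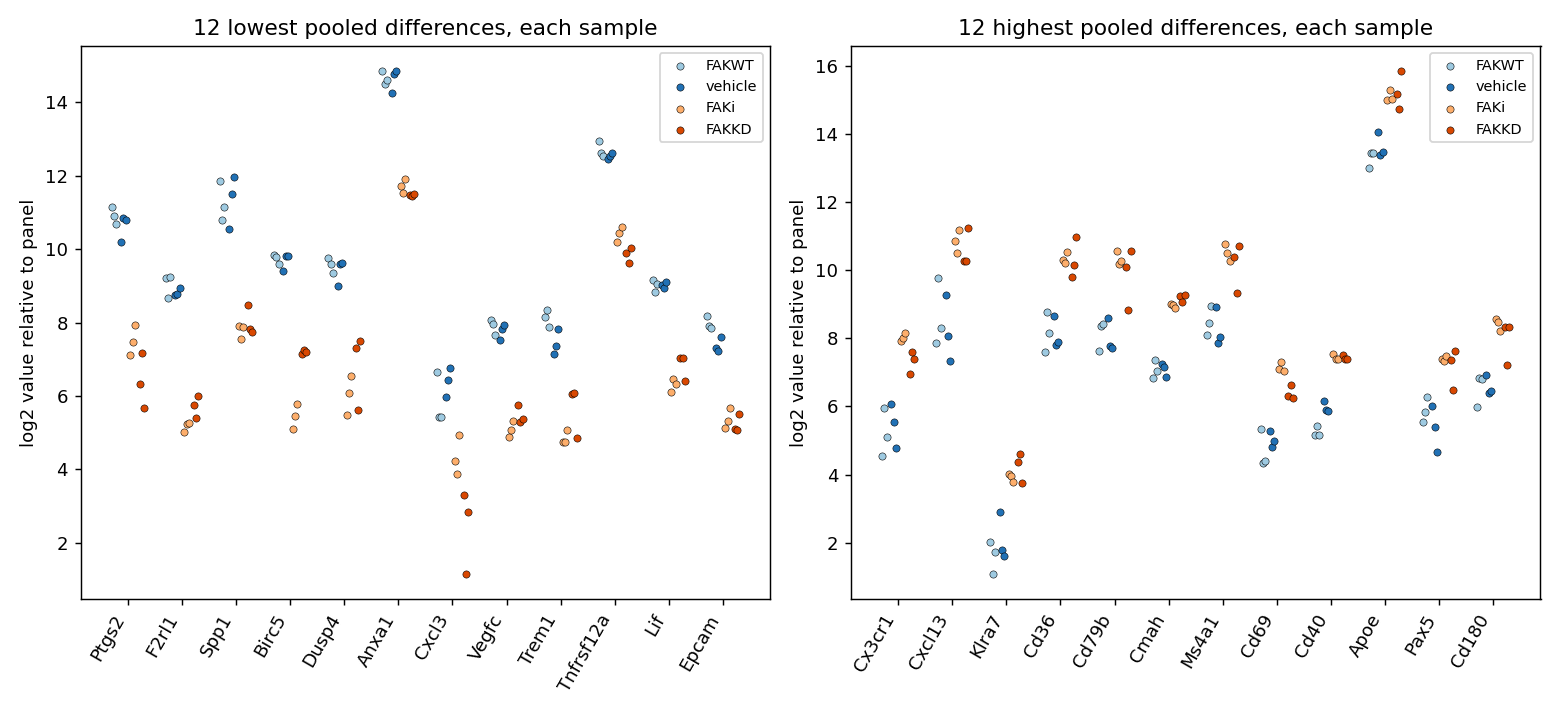
Log2 values relative to the panel (y axis) of each sample, coloured by group, for the 12 genes with the lowest and the 12 with the highest pooled difference among genes that moved alike on both scales without overlap. Within each gene, the control samples stand to the left and the impaired samples to the right, and the nearest samples of the 2 pools do not cross.

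The MAP kinase list held falls and rises together. Of 25 members, 17 fell, 5 rose and 3 did not pass, with a median of -0.58 relative to the panel. As deposited the balance was turned, with 16 higher, 3 lower and a median of 0.32, where the panel had 68.9% higher and a median of 0.74. Dusp4, a phosphatase that switches off ERK and is itself induced by it, was at 9.0, 9.60 and 9.76 in the control and 5.48, 6.31 and 7.49 in the impaired samples (-3.06 ± 0.30, adjusted p = 1.92e-06). Dusp6, another ERK phosphatase, fell by 1.44 on the log2 scale and Mapk11, the kinase p38 beta, by 2.16, and these were the other 2 members lower in both arms on both scales. Map2k2, which encodes the ERK kinase MEK2, fell relative to the panel (-0.93 ± 0.08, adjusted p = 8.27e-07) and did not pass as deposited (-0.04, adjusted p = 0.607). The 5 members that rose were the immediate early genes Fos (1.28), Egr1 (1.04), Egr3 (1.03), Jun (0.94) and Egr2, which encode transcription factors induced within minutes of stimulation. Egr2 had recovered counts of 10 to 20 in the control and 24 to 54 in the impaired samples. No background level was used here, so no size is given for Egr2. Egr3 was also low, with counts of 16 to 46 in the control samples. Fos, Egr1 and Jun rose in both arms on both scales. Their pools overlapped, as in Egr1, which was at 9.11, 9.59 and 9.96 in the control and 9.50, 10.77 and 11.07 in the impaired samples.

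Of 10 proliferation and survival genes, 8 fell, 1 rose (Bcl2) and 1 did not pass, with a median of -1.09. Birc5, survivin, a protein of mitosis and an inhibitor of apoptosis, was at 9.39, 9.79 and 9.85 in the control and 5.09, 6.46 and 7.24 in the impaired samples, a difference of -3.39 ± 0.12 (adjusted p = 7.47e-10). The impaired samples fell into 2 levels by arm: FAKi samples at 5.09, 5.44 and 5.78 and FAKKD samples at 7.14, 7.20 and 7.24. The arms differed by 1.69 ± 0.24 (adjusted p = 9.04e-04), with the larger fall under the inhibitor. Tfrc, the transferrin receptor through which dividing cells take up iron, fell by 2.18 on the log2 scale, and Myc, a transcription factor of growth, by 1.47.

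Relative to the panel, NF-kB genes moved mostly down and cytokine genes in both directions. Of 27 NF-kB and TNF signalling genes, 19 fell, 1 rose and 7 did not pass (median -0.43). Irak2, a kinase of interleukin-1 and Toll-like receptor signalling, was at 10.28, 10.65 and 10.93 against 8.03, 8.64 and 8.86 (-2.09 ± 0.12, adjusted p = 1.52e-08), and Nfkb2, the p100 subunit of NF-kB, at 11.18, 11.41 and 11.57 against 9.45, 9.86 and 10.20 (-1.60 ± 0.09, adjusted p = 1.52e-08). As deposited the list leaned the other way, with 19 of 27 genes higher and 3 lower, near the panel's 68.9% and 10.9%. Ticam2, a Toll-like receptor adaptor, was the member that rose relative to the panel (0.65). Of 20 inflammatory cytokine genes, 8 fell, 6 rose and 6 had no call, and as deposited 10 were higher and 3 lower. Lif, leukaemia inhibitory factor, a cytokine of the interleukin-6 family, was at 8.84, 9.05 and 9.17 in the control and 6.10, 6.44 and 7.03 in the impaired samples (-2.46 ± 0.12, adjusted p = 7.35e-09). Il1rn, the secreted antagonist of the interleukin-1 receptor, fell by 2.92 on the log2 scale in the genotype arm and by 1.51 in the inhibitor arm (adjusted p of the difference 6.55e-04). Cxcl3, a chemokine that attracts neutrophils, had recovered counts of 39 to 107 in the control and 2 to 29 in the impaired samples (adjusted p = 3.23e-05). Counts of the cytokine gene Il25, chosen after its values were seen, were 19 to 26 in all 12 samples, and no background level was used here, so no size is given for the change of Cxcl3. Cxcl2, its close relative, rose by 0.96, overlapped between the pools and did not pass with vehicle as the only control (0.48, adjusted p = 0.185). Trem1, an activating receptor of neutrophils and monocytes, was at 7.15, 7.84 and 8.35 against 4.74, 4.96 and 6.09 (-2.53 ± 0.21, adjusted p = 5.55e-07). Vegfc, a growth factor of lymphatic vessels, fell by 2.55 on the log2 scale and was the suppressive mediator with the smallest p.

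Relative to the panel, interferon-response genes fell in 16 of 33 cases, rose in 1 and did not pass in 16. On the deposited values 18 were higher and 5 lower, where 68.9% of the panel was higher and 10.9% lower. In the genotype arm alone 24 were higher and 2 lower as deposited. Only Oasl1, an antiviral protein of the oligoadenylate synthetase family (-2.17 ± 0.16, adjusted p = 1.44e-07), and Isg20, an antiviral exonuclease (-1.84 ± 0.09, adjusted p = 8.80e-09), were lower in both arms on both scales. In each of the 2 genes all 6 impaired samples lay under all 6 control samples. The list's median was -0.34 pooled, -0.10 in the genotype arm and -0.70 in the inhibitor arm. The difference between arms passed for 12 of 33 members, 10 of them with the higher value in the genotype arm. Socs1, the feedback inhibitor of cytokine receptors, fell relative to the panel by 1.38 on the log2 scale.

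The ligands of TIGIT followed the lower genes. Of the 4 measured genes of the axis, 3 fell relative to the panel and 1 did not pass. Pvr was at 8.95, 9.27 and 9.48 in the control and 7.08, 7.37 and 8.25 in the impaired samples, and the highest impaired sample was thus below the lowest control sample. Its pooled difference was -1.73 ± 0.12 (adjusted p = 7.87e-08), a level 3.33 times lower, and it was lower in both arms on both scales, by more in the genotype arm (-2.24) than in the inhibitor arm (-1.23, adjusted p of the difference 0.00882). Pvrl2, nectin-2, another ligand of TIGIT, was at 11.19, 11.51 and 11.84 against 9.88, 10.26 and 10.76 (-1.24 ± 0.09, adjusted p = 9.71e-08), but as deposited the inhibitor arm did not pass with it, so it is not among the 147. Over the same samples the epithelial and tumour genes had a median of -1.0, and their part in the falls of Pvr and Pvrl2 was not tested. Tigit itself fell relative to the panel (-1.09 ± 0.26, adjusted p = 0.00301), with recovered counts of 29 to 69 in the control and 16 to 36 in the impaired samples, and did not pass as deposited (-0.20, adjusted p = 0.464). Cd96, another receptor of CD155, had no call relative to the panel (-0.16 ± 0.29, adjusted p = 0.667) at counts of 9 to 20 per sample. On the deposited values it was the 1 gene of the axis called higher.

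Macrophage genes were among those that rose, 19 of 33 in the genotype arm and 12 in the inhibitor arm, where 12 others fell. The list of macrophages and monocytes counted 16 rises, 9 falls and 8 genes without a call among 33, with a median of 0.37, which was 0.61 in the genotype and -0.13 in the inhibitor arm. Cx3cr1, the fractalkine receptor of monocytes and resident macrophages, was at 4.55, 5.32 and 6.08 in the control and 6.96, 7.76 and 8.16 in the impaired samples, the largest rise among the 97 genes (2.34 ± 0.25, adjusted p = 4.52e-06). Cd36, a scavenger receptor for lipids, was at 7.60, 8.03 and 8.77 against 9.80, 10.27 and 10.97 (2.18 ± 0.24, adjusted p = 4.46e-06). Csf1r, the receptor for the macrophage growth factor, was at 10.23, 10.42 and 10.57 against 11.49, 11.54 and 11.69, and the arms changed it by 1.15 and 1.12. The impaired samples lay closer to each other than to any control sample in Csf1r. The macrophage markers Itgam, Emr1 and Cd68 did not share this rise in the inhibitor arm. Relative to the panel, every FAKi sample lay below every vehicle sample in each of them. Itgam had recovered counts of 2890 to 4010 in the FAKi and 4672 to 6334 in the vehicle samples. Emr1 went up in the genotype arm, with counts of 4496 to 4948 in the FAKKD and 2496 to 3359 in the untreated FAKWT samples. Apoe, a lipoprotein that macrophages secrete, stood at 13.00, 13.43 and 14.05 against 14.73, 15.09 and 15.84 (1.71 ± 0.18, adjusted p = 3.55e-06). The 11 list members higher in both arms on both scales also held Timd4 (1.57), a receptor for dying cells on resident peritoneal macrophages, and C1qa (0.78) and C1qb (0.88), chains of complement C1q. The macrophage genes that fell relative to the panel included Axl, a receptor for dying cells (-1.07), the haemoglobin scavenger receptor Cd163 (-0.87) and the endotoxin receptor Tlr4 (-0.83). C1qbp, the list's only member lower in both arms on both scales (-1.74), encodes a mitochondrial protein of all cell types.

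Genes of MHC class II, the molecules that present peptides to helper T cells, rose as a group. Of 10 members 8 rose, 2 did not pass and none fell, with a median of 1.16, and 7 were higher in both arms on both scales. H2-Aa, the alpha chain of the I-A molecule, was at 12.24, 12.50 and 13.33 in the control and 13.62, 14.07 and 14.37 in the impaired samples (1.35 ± 0.14, adjusted p = 3.34e-06). The control samples were not alike: H2-Aa stood at 12.24, 12.24 and 12.34 in the untreated FAKWT samples and at 13.33, 13.33 and 12.66 in the vehicle samples, so the pooled difference was 1.76 against untreated FAKWT and 0.93 against vehicle. H2-Eb1, the beta chain of I-E, was at 9.99, 10.39 and 11.23 against 11.48, 11.81 and 12.02 (1.28 ± 0.13, adjusted p = 2.49e-06). H2-Ob, a chain of H2-O, which restrains peptide loading in B cells, was at 5.78, 6.30 and 6.78 against 7.15, 7.85 and 8.31 (1.51 ± 0.20, adjusted p = 2.60e-05). Ciita, a transactivator of class II genes, rose by 1.0 ± 0.11 (adjusted p = 5.43e-06). The pseudogene H2-Ea-ps and H2-DMb2 were the 2 members that did not pass.

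Promoters of this class are known for a conserved module that ends in a CCAAT box (Y box), bound by the factor NF-Y. The windows of the 3 chains described above are printed to show that box where the genes moved together, with CCAAT or its reverse complement ATTGG in capitals. They run from 250 bases before to 50 bases after the annotated start, from RefSeq on build GRCm38.p6: H2-Aa at chr17:34287774-34288073 on the minus strand, H2-Eb1 at chr17:34305617-34305916 and H2-Ob at chr17:34238655-34238954 on the plus strand.
H2-Aa: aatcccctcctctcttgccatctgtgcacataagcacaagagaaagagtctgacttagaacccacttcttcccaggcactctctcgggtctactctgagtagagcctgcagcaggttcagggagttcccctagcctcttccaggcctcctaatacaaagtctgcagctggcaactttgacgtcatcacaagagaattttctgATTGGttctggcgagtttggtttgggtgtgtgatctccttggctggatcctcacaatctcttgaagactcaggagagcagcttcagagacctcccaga
H2-Eb1: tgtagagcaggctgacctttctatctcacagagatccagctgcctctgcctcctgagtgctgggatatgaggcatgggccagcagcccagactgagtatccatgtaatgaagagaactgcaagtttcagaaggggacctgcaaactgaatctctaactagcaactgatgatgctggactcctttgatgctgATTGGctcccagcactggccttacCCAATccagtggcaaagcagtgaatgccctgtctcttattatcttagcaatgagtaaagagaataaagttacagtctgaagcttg
H2-Ob: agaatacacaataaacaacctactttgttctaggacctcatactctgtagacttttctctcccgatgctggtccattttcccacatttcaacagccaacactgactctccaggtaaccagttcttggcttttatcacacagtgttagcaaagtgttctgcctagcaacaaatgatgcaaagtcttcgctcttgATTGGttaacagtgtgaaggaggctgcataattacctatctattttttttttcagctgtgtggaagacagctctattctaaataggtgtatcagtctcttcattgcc
The box begins 48 bases before the start in H2-Aa and 57 in H2-Ob, and H2-Eb1 holds 2 matches, 59 and 35 bases before. CCAAT on either strand was found for 6 of 6 measured class II genes with a window, for 37% of the 551 panel genes with a window and for 37.4% of all 32851 windows. Among genes that moved alike on both scales it was found for 33.3% of 72 higher and 44.7% of 38 lower genes, shares near the panel's. A match is a description of the letters in a window, not of a bound site.

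B-cell genes were higher in the impaired samples. Of 24 members, 19 rose, none fell and 5 did not pass, with a median of 0.94, and 12 were higher in both arms on both scales. Cd79b, a signalling chain of the B-cell receptor, was at 7.63, 8.08 and 8.60 in the control and 8.84, 10.23 and 10.57 in the impaired samples (2.00 ± 0.27, adjusted p = 3.27e-05). Ms4a1, which encodes CD20, was at 7.87, 8.27 and 8.95 against 9.33, 10.45 and 10.76 (1.94 ± 0.25, adjusted p = 2.23e-05), and Pax5, the transcription factor of B-cell identity, at 4.66, 5.70 and 6.28 against 6.48, 7.37 and 7.63 (1.66 ± 0.24, adjusted p = 6.68e-05). The lowest impaired sample in all of these was FAKKD replicate 4, which still lay above every control sample. Without it the same number of list members rose, 19, and the difference was 2.25 for Cd79b, 2.14 for Ms4a1 and 1.82 for Pax5. Cd180, a Toll-like receptor relative of B cells, was at 5.98, 6.63 and 6.92 against 7.20, 8.34 and 8.56 (1.62 ± 0.22, adjusted p = 3.23e-05, and 1.80 without FAKKD replicate 4). Cd40, the costimulatory receptor of B cells and other antigen-presenting cells, was at 5.15, 5.63 and 6.17 against 7.39, 7.40 and 7.55 (1.84 ± 0.10, adjusted p = 1.27e-08).

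Genes that guide lymphocytes into follicles divided. Of 18 members, 7 rose, 6 fell and 5 did not pass. Cxcl13, the chemokine that draws B cells, was at 7.32, 8.18 and 9.76 in the control and 10.28, 10.68 and 11.22 in the impaired samples (2.30 ± 0.37, adjusted p = 1.25e-04), and its receptor Cxcr5 rose by 1.62 ± 0.23 with overlapping pools. Cd69, which holds lymphocytes in tissue after activation, was at 4.34, 4.89 and 5.35 against 6.25, 6.83 and 7.30 (1.91 ± 0.18, adjusted p = 1.54e-06). Ltbr, the lymphotoxin beta receptor of stromal and myeloid cells, fell in both arms on both scales (-1.30 ± 0.08, adjusted p = 2.32e-08), while Ltb, a chain of its ligand made by lymphocytes, rose (1.5). Over the same samples the log2 of the B-cell list's summed level ran from 12.13 to 12.41 in the control and from 12.90 to 13.44 in the impaired samples, and its part in the rises of Cxcr5, Ltb and the class II genes was not tested.

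Mast-cell and eosinophil genes rose in 7 of 10 cases with none lower (median 1.07), and 6 were higher in both arms on both scales. Cma1, a chymase of connective-tissue mast cells, was at 7.51, 9.81 and 11.28 in the control and 10.99, 11.56 and 12.75 in the impaired samples, a wide and overlapping spread (2.29 ± 0.42, adjusted p = 3.76e-04). Ms4a2, the beta chain of the high-affinity IgE receptor, rose by 1.54 ± 0.28, from recovered counts of 18 to 76 in the control samples. Il5ra, the interleukin-5 receptor chain of eosinophils, had counts of 16 to 29 in the control and 35 to 68 in the impaired samples (limma, adjusted p = 7.21e-05). The control counts of Il5ra were near those of Il25, so no size is given for its rise. With untreated FAKWT as the only control 4 of the 10 genes rose and Cma1 did not pass (1.26, adjusted p = 0.0534), and with vehicle as the only control 8 rose.

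T-cell genes rose in 13 of 22 cases, with 2 lower and 7 not passing (median 0.48), and 6 were higher in both arms on both scales. In the inhibitor arm alone 6 of the 22 rose, and the log2 of the list's summed level overlapped between the pools, at 10.20 to 10.61 in the impaired and 10.42 to 10.62 in the control samples. Thy1, a surface glycoprotein of T cells, was at 4.73, 5.09 and 5.67 against 6.0, 6.28 and 6.51 (1.11 ± 0.18, adjusted p = 1.65e-04). Lck, the kinase that starts T-cell receptor signalling, was at 4.20, 4.89 and 5.41 against 5.62, 5.89 and 6.39 (1.08 ± 0.21, adjusted p = 6.31e-04). Its recovered counts were only 18 to 46 in the control samples, so the size of its rise is uncertain. Tcf7, a transcription factor of naive and memory T cells, fell (-0.95 ± 0.12, adjusted p = 1.52e-05), and so did Fyn (-0.55), a Src-family kinase. Of 31 cytotoxic and NK-cell genes, 27 did not pass relative to the panel, and 22 had a mean recovered count under 20. As deposited 24 of the 31 were higher and none lower, where 68.9% of the panel was higher. The NK receptor gene Klra7 had recovered counts of 2 to 8 in the control and 13 to 22 in the impaired samples (adjusted p = 2.20e-05). The cytokine genes Il9 and Il17a, chosen after their values were seen, had counts of 4 to 14 and 6 to 14 over the 12 samples, so no size is given for Klra7 either, and how far its probe tells it from the closely related Klra genes is not stated. Slamf7, a receptor of NK cells, B cells and macrophages, rose by 1.38 ± 0.13. Among 16 dendritic-cell genes, 14 were higher as deposited and none lower, while relative to the panel 4 rose and 12 did not pass. Those that rose were Cd83, a maturation marker (1.23), the interferon regulatory factors Irf4 (1.23) and Irf8 (0.95), and Tlr9, a receptor for bacterial DNA (1.18), none of which is particular to dendritic cells.

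Among 25 other checkpoint and costimulatory genes, 7 rose, 5 fell and 13 did not pass. Pdcd1, the inhibitory receptor PD-1, was at 6.63, 7.28 and 8.29 in the control and 4.36, 4.86 and 5.74 in the impaired samples (-2.39 ± 0.24, adjusted p = 2.23e-06), by more in the inhibitor arm (-3.25) than in the genotype arm (-1.53, adjusted p of the difference 0.0191). Cd276, the B7 family ligand B7-H3 of tumour cells, fell by 1.5 on the log2 scale and was the list's only member lower in both arms on both scales. Btla, an inhibitory receptor of B and T cells, and Cd86, a ligand of CD28 on antigen-presenting cells, rose with Cd40 in both arms on both scales (1.18 and 0.92). The suppressive mediators Arg1, the arginine-degrading enzyme of myeloid cells, and Lgals3, galectin-3, fell relative to the panel (-2.16 ± 0.24 and -1.53 ± 0.13). Arg1 fell by more in the inhibitor arm (-3.23) than in the genotype arm (-1.09, adjusted p of the difference 0.00729), and on the deposited values neither gene had a call in the genotype arm (-0.04 and -0.26).

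The remaining lists moved in both directions or mostly did not pass. The 17 neutrophil genes held 3 rises, 5 falls and 9 genes without a call, and Camp, a granule antimicrobial peptide, rose (1.5 ± 0.15) where Trem1 fell. Among 8 genes of neutrophil-attracting chemokines and their receptors, 4 fell, 1 rose and 3 did not pass. The 19 genes of stroma and endothelium held 6 rises and 7 falls, and the matrix protein Thbs1, thrombospondin-1, fell by 1.42 on the log2 scale. The 30 complement genes held 9 rises and 5 falls, with C3ar1, the receptor for C3a, at 0.75 ± 0.07. Of 15 genes of MHC class I and peptide loading, 4 fell, among them the chaperone tapasin (Tapbp, -0.65, with no call under quantile normalization at -0.12), 10 did not pass, and Mr1, which presents vitamin metabolites to T cells, rose (0.68). Among 23 genes of regulatory and helper T cells 4 rose and 4 fell, with the chemokine receptor Ccr4 at 0.62 and the follicular-helper factor Bcl6 at -0.76. As deposited 21 of these 23 were higher and none lower. The other 28 chemokine genes held 10 falls and 6 rises, with the T-cell attractant Ccl5 at -1.07. The suppressive mediators counted 10 falls, 2 rises and 7 genes without a call, against 12 higher and 4 lower as deposited. As deposited the balance also turned for neutrophils (9 higher, 2 lower), neutrophil-attracting chemokines (3 and 1), the other chemokines (18 and 2), stroma and endothelium (11 and 4) and MHC class I (12 and 0). Over the panel 68.9% of genes were higher and 10.9% lower on that scale. The 3 platelet genes held 1 rise, 1 fall and 1 without a call.

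**Figure D4:**
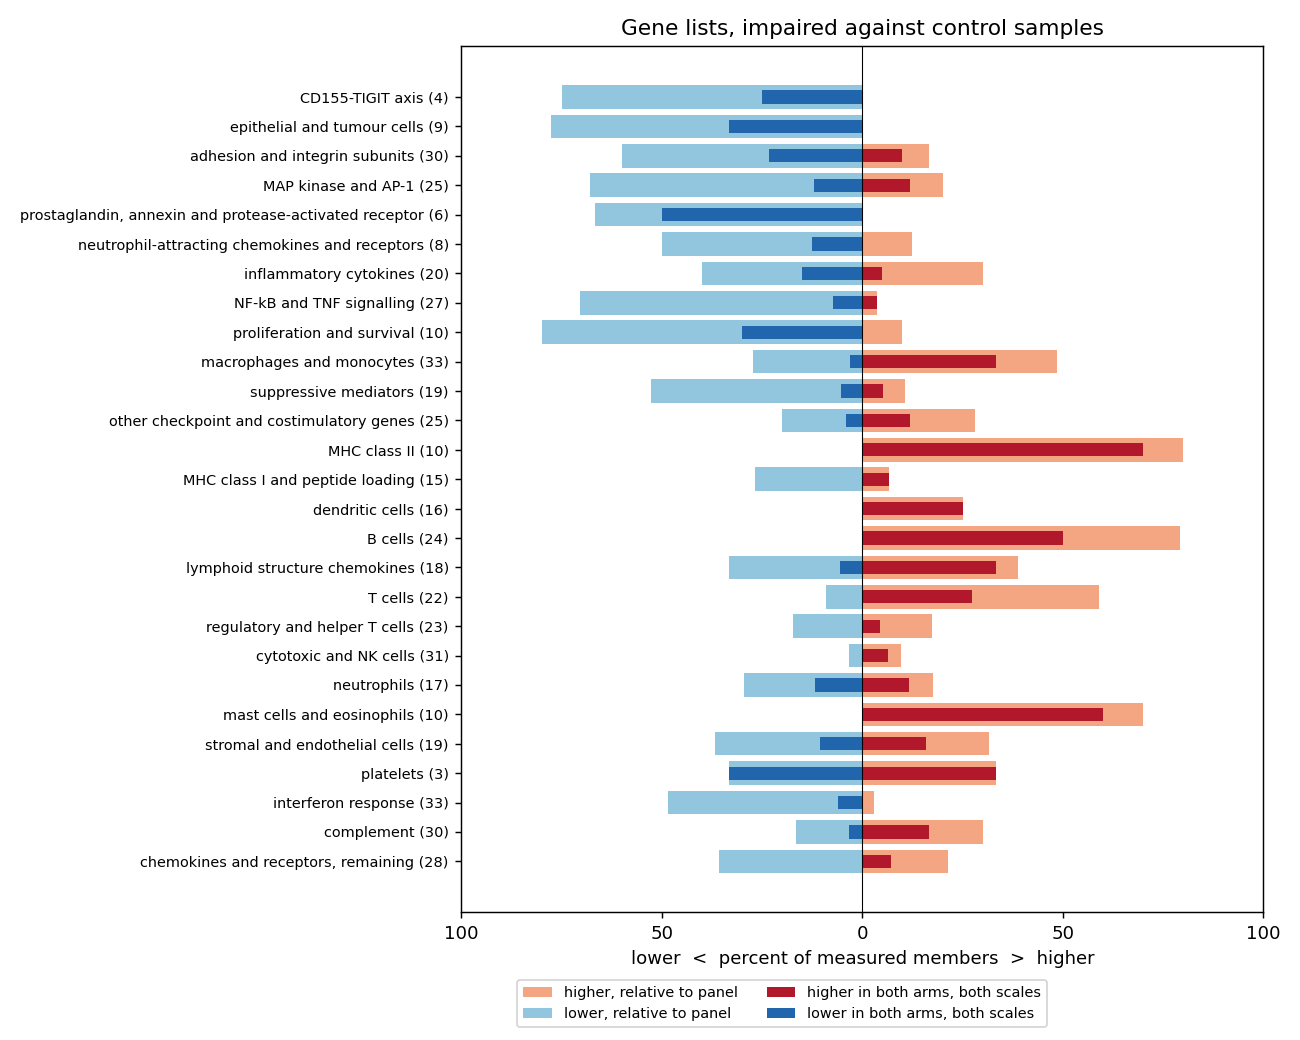
For each gene list (number of measured members in brackets), wide bars give the percent of members higher (right) and lower (left) in the pooled comparison relative to the panel, and narrow dark bars the percent higher or lower in both arms on both scales. The background over all 750 genes is 23.2% higher and 36% lower for the wide bars and 12.9% and 6.67% for the narrow ones, and MHC class II, B-cell, dendritic-cell, and mast-cell and eosinophil genes hold no lower member.

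Pooling hid changes that ran against each other in the 2 arms. The difference between the arms passed for 195 genes (26%) relative to the panel, 84 (11.2%) with the higher value in the genotype arm and 111 (14.8%) with the lower. As deposited it passed for 179 genes (23.9%), 122 (16.3%) and 57 (7.6%) in these directions. Among the 18 genes that passed in opposite directions, C1s1, a protease of the classical complement pathway, was at 11.06, 11.06 and 10.85 in the FAKKD and 12.26, 12.27 and 12.02 in the untreated FAKWT samples, but at 12.65, 12.19 and 12.89 in the FAKi and 12.25, 11.82 and 11.83 in the vehicle samples. It fell by 1.19 in the genotype arm and rose by 0.61 in the inhibitor arm, a difference of -1.80 ± 0.24 (adjusted p = 6.56e-04), while the pooled value of -0.29 did not pass (adjusted p = 0.0556). Nt5e, the gene of CD73, an enzyme that makes adenosine, did the reverse, with 0.62 in the genotype and -1.19 in the inhibitor arm (difference 1.82 ± 0.27, adjusted p = 0.00108). Icam4, an adhesion molecule of red cells, had -0.64 and 0.72, the tetraspanin Cd81 -0.72 and 0.47, and Csf1, the macrophage growth factor, -0.67 and 0.52. Il6, the cytokine interleukin-6, was the gene of the 18 with the widest split, 1.06 against -2.27, and its pooled value of -0.61 did not pass (adjusted p = 0.0825). Its recovered counts were 986, 1044 and 314 in the FAKKD and 305, 316 and 303 in the untreated FAKWT samples. The rise in the genotype arm thus came from FAKKD replicates 3 and 4. Relative to the panel, FAKKD replicate 5 lay below every untreated FAKWT sample.

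Some genes moved in 1 arm and carried the pooled call. Tdo2, an enzyme that breaks down tryptophan, fell by 2.68 on the log2 scale in the inhibitor arm and had 0.45 in the genotype arm, which gave a pooled difference of -1.12 ± 0.19 (adjusted p = 2.19e-04). Mapk3, the kinase ERK1, had -1.34 in the genotype and -0.15 in the inhibitor arm (difference -1.19 ± 0.15, adjusted p = 4.98e-04). Tgfb3, a transforming growth factor beta, had -1.02 and 0.26. In the pooled counts relative to the panel, 97 of 174 higher and 168 of 270 lower genes passed in both arms, 49 and 67 passed in the genotype arm only, 21 and 24 in the inhibitor arm only, and 7 and 11 in neither. Passing in 1 arm only does not show that the arms differ, which the test of the difference above addresses.

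**Figure D5:**
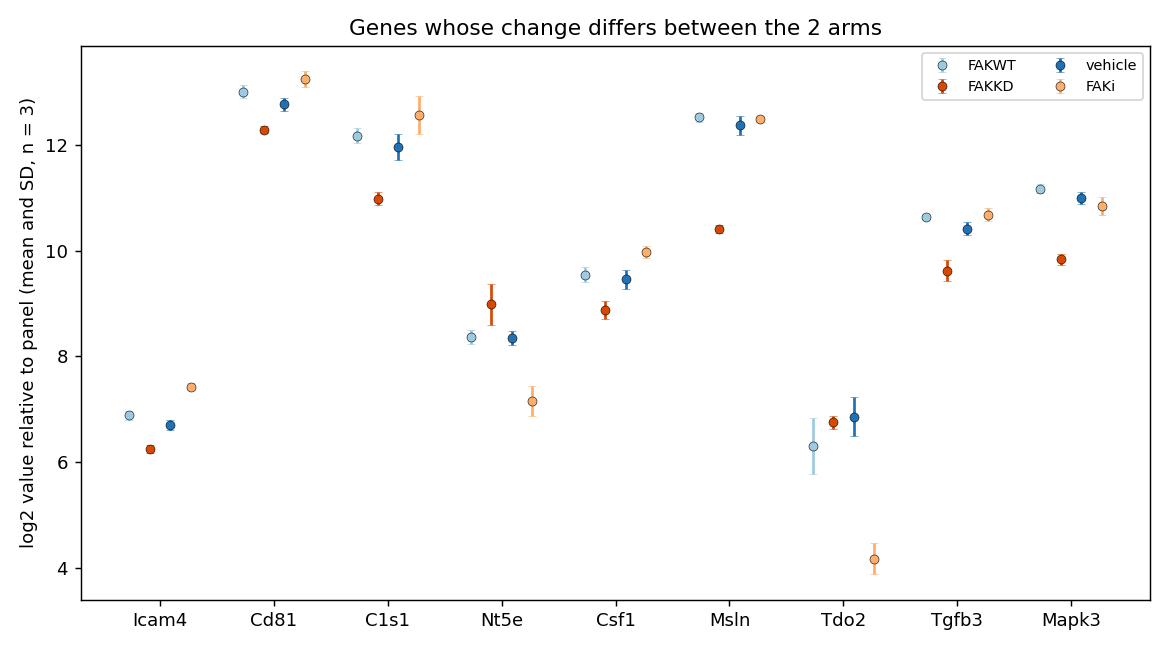
Mean log2 value relative to the panel with its SD (n = 3 samples per group) in the 4 groups, for 5 genes that passed in opposite directions in the 2 arms (left) and 4 further genes with a small p for the difference between arms. Msln, Tgfb3 and Mapk3 are low in the FAKKD group, Tdo2 is low in the FAKi group, and untreated FAKWT and vehicle means lie close together in most of these genes.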

How the data were processed

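The authors deposited log2 values for 750 genes in 12 samples, 4 groups of 3, and all columns matched a sample. How these deposited log2 values were normalized, and on which reference genes, is not given in the sources. Counts and a factor per sample were recovered from them (tolerance 0.01, 100% of genes whole), and 148 genes had a mean count under 20. The number of counts limits the precision of low genes. No background level was used, so differences of genes with counts near those of Il25 (19 to 26) are uncertain in size. Of the 750 symbols 734 matched a current symbol of RefSeq GRCm38.p6, 8 a synonym and 8 none.

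A linear model of 4 group means was fitted to all 12 samples with limma 3.58.1 in R 4.3.3 (lmFit, contrasts.fit, eBayes with trend, two-sided, Benjamini-Hochberg over 750 genes, threshold 0.05), on the deposited log2 values and again with each sample's panel median set to the same value. The pooled contrast was the mean of FAKKD and FAKi minus the mean of FAKWT and vehicle. Errors of differences are moderated standard errors. The fit was tested on simulated data. Values of 1 number per sample had exact permutation tests (scipy 1.17.1), and figures used matplotlib 3.10.9. The main fit did not pair samples by the replicate numbers in their titles, and whether these numbers mark pairs is not settled here.

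The comparison and the 27 gene lists were chosen with earlier results of these data known. Named were the CD155-TIGIT genes of the panel, the 12 top and 12 bottom genes that moved alike on both scales without overlap, up to 3 genes per list by p, and 12 genes by the difference between arms, of which 1 is not reported here. Lyz2, Muc1, Cdh1, Pla2g6, Plau, Fos, Jun, the Egr genes, Bcl2, Ticam2, Timd4, C1qa, Cd163, Tlr4, Itgam, Emr1, Cd68, Ciita, H2-Ob, H2-DMb2, H2-Ea-ps, Cxcr5, Ltb, Lck, Irf4, Irf8, Btla, Cd86, Arg1, Il6, further integrin subunits, Ncam1 and the genes on no list were named after their values were seen. Alternatives were other filters, moderation, scalings, controls and designs, a replicate block and leaving out each sample. The B-cell count without FAKKD replicate 4 was added after seeing the data.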

Additional observations from a re-analysis of the deposited data

Results flagged for a closer look

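A total of 202 pools of 6 samples were screened for a sample far from the others, and 8 had one by Dixon's criterion, which chance gives in about 1 of 20. In 5 of the 8 the sample was FAKKD replicate 4, low among the impaired samples in the B-cell genes Cd79b (gap 0.722 of the range), Ms4a1 (0.645), Pax5 (0.75) and Cd180 (0.734) and high in Psmb10, an immunoproteasome subunit (0.652). Its log2 value in Cd79b was 8.84 against 10.09 to 10.57 in the other impaired samples, and in Pax5 6.48 against 7.34 to 7.63. The values of the 4 B-cell genes without this sample are given above. In the others the sample was FAKi replicate 6 for the TNF receptor Tnfrsf1a (0.715), FAKWT replicate 1 for Tnfrsf12a (0.648), and FAKWT replicate 2 for the neutrophil chemokine receptor Cxcr2 (0.662), at 8.50 against 6.66 to 7.28 in the other controls.

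Of 97 named genes, 34 had a change that differed between the arms by the test of the difference itself (limma, adjusted over 750 genes), given here as the genotype arm minus the inhibitor arm in log2 units relative to the panel. In genes that fell in both arms on both scales, the fall was larger in the genotype arm for Pvr (-1), Ptgs2 (-1.43), Tnfrsf12a (-0.724), Itgb4 (-0.944), Il1rn (-1.41), Irak2 (-0.734), Nfkb2 (-0.564), Tfrc (-0.972), Col4a1 (-1.29), Itgb3 (-0.745) and Isg20 (-1.02), and larger in the inhibitor arm for Birc5 (1.69) and Plaur (0.676). In genes that rose in both arms on both scales, the rise was larger in the genotype arm for Cd40 (0.708), Cybb (0.786) and C1qb (0.478). The arms had opposite signs, each passing, for Icam4 (-1.36), Cd81 (-1.19), C1s1 (-1.8), Nt5e (1.82) and Csf1 (-1.19). The remaining values were Pvrl2 (-1), Msln (-2.23), Il18 (-0.617), Axl (-0.725), Cd47 (-0.428), Pdcd1 (1.72), Tapbp (-0.805), Tnfsf14 (1.23), Rora (-0.745), Thbs1 (0.966), Tdo2 (3.13), Tgfb3 (-1.28) and Mapk3 (-1.19). Pdcd1 fell by more in the inhibitor arm, and the pooled fall of Msln came from the genotype arm. Untreated mice made up 1 arm and gavaged mice the other, so gavage and arm cannot be told apart.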

How the results depend on the processing

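Total counts of called genes, both directions together, moved by less than 1.5 times under every alternative that was run except the replicate block. By direction, genes with the higher change in the genotype arm fell from 84 to 54 without vehicle replicate 4, those with the lower from 111 to 57 as deposited, and genes lower in both arms relative to the panel from 168 to 112 under quantile normalization. Leaving out each sample in turn gave 566 to 615 pooled calls as deposited and 417 to 455 relative to the panel. The genes moving alike then numbered 337 to 368 as deposited, 233 to 270 relative to the panel and 134 to 155 on both scales, and those whose arms differ 137 to 212. Of the 147 genes alike on both scales, 141 moved alike in both arms under quantile normalization and all 147 under total-count scaling. In the pooled contrast, 143 of the 147 were called on both scales with untreated FAKWT as the only control and 147 with vehicle as the only control. Quantile normalization gave 51.1% higher among the genes moving alike against 36.6% relative to the panel, and 49.4% against 39.2% among pooled calls. Total-count scaling gave 32.4% higher among genes whose arms differ against 43.1%.

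With the replicate number as a block, limma called 386 genes as deposited and 268 relative to the panel, and genes moving alike numbered 195, 125 and 53 on both scales. None then had a passing difference between arms (0, with 162 at an unadjusted p under 0.05 against 275 without the block). The block leaves 2 residual degrees of freedom. Same-numbered samples correlated at -0.22 to 0.35 in their deviations from group means. These correlations were not set against those of differently numbered samples, so they cannot show whether the numbers pair samples.

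Of the tests of named genes, 9 lost their call outside the block and 2 changed sign without passing: Cd96 without vehicle replicate 4 (0.0091, in a range of -0.31 to 0.0091 over all samples left out) and Ppbp, a platelet chemokine, with untreated FAKWT as the only control (0.0017). Low counts limit the NK-cell genes most.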

Other observations

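Of the 147 genes that moved alike on both scales, 37 were on none of the gene lists, 16 lower and 21 higher, and were chosen for naming after their values were seen. Among the lower ones, Mif, a cytokine released by tumour cells and macrophages, was at 10.67, 11.30 and 11.67 in the control and 9.05, 9.26 and 9.38 in the impaired samples (-2.01 ± 0.13, adjusted p = 6.80e-08). Ulbp1 (-1.83) and Raet1 (-1.37), ligands of the activating NK-cell receptor NKG2D, fell with it, while most genes of the cytotoxic and NK-cell list did not pass. Hif1a, the transcription factor of the hypoxia response, had a difference of -1.27 and Erbb2, a receptor tyrosine kinase of epithelia, -1.38.

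Among the higher ones, Cmah, an enzyme that converts sialic acid from one form to another, had a narrow spread, at 6.84, 7.10 and 7.36 in the control and 8.89, 9.03 and 9.26 in the impaired samples (1.98 ± 0.10, adjusted p = 1.02e-08). Ptprc, which encodes CD45, the phosphatase carried by all leukocytes, was at 8.77, 9.17 and 9.47 in the control and 9.87, 9.93 and 9.97 in the impaired samples (0.74 ± 0.11, adjusted p = 4.73e-05). The endosomal receptors for RNA Tlr7 (1.0) and Tlr8 (0.55) rose, while Tlr5, the receptor for flagellin, fell (-1.63). The endothelial and leukocyte adhesion molecule Pecam1 (1.54) and the collagen Col3a1 (1.23) rose in both arms on both scales, while the basement-membrane collagen Col4a1 fell in both (-1.69).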
